A study of Homo sapiens with 9 samples.

Results

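The MYC and MAX network is a set of basic helix-loop-helix leucine zipper transcription factors, and its transcripts were followed here in 9 RNA-seq libraries of cells labelled NCI-H69, a long-used line derived from small cell lung cancer. The members were chosen by symbol, with earlier results of these data known: MYC, MYCN, MYCL, MAX, MXD1, MXD4, MXI1, MNT, MGA and MLX, which are 10 of the 17529 genes in the deposited table. All 10 were present and all 10 passed the filter on low counts. Each group held 3 libraries labelled as biological replicates: cells given an siRNA against CSNK2B (si_CSNK2B), cells given an siRNA against P300 (si_P300), and cells given a negative control siRNA (NC). CSNK2B encodes the regulatory subunit of protein kinase CK2, and P300 is the histone acetyltransferase encoded by EP300. Cells of all 9 libraries were transfected, and RNA was taken 48 hours later. No sequence of the siRNAs is given in the labels, and no untransfected group was analysed here.

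MYC, MYCN and MYCL activate transcription as heterodimers with MAX, the obligate partner, on the E-box CACGTG. The MXD proteins (among the members MXD1, MXD4 and MXI1) and MNT also pair with MAX and compete with MYC for it. They repress the same sites through SIN3 and histone deacetylases. MGA pairs with MAX inside a Polycomb complex (PRC1.6). MLX is a MAX-like hub that pairs with MXD1, MXD4 and MNT and with the glucose-sensing activators MLXIP (MondoA) and MLXIPL (ChREBP). CK2 is known to phosphorylate MYC and MAX, and P300 is known to acetylate MYC and to act as its coactivator. NCI-H69 is known for amplified MYCN.

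Promoter windows of the network genes were read from RefSeq (GRCh38.p14), each with 250 bases before and 50 bases after an annotated start. Windows of 9 of the 10 members (all but MYC) were matched by symbol, 14 in all. The network's own E-box, CACGTG (a palindrome, so equal on both strands), was found in 3 of these windows, those of MXD4, MLX and MNT, against 7.26% of 35116 windows of all genes and 9.15% of 15435 windows of tested genes. The AP-1 motif TGANTCA, searched on both strands, was in 0 of the 14 windows, against 7.71% of all windows and 5.59% of the windows of tested genes. The GC box GGGCGG, also on both strands, was in 11 of the 14, against 45% of all windows and 64.1% of the windows of tested genes. The 3 windows with an E-box, in capitals below, are shown because these members later differ in direction: MXD4 rose in si_CSNK2B, MLX fell in both siRNA groups and MNT did not pass the test. The MXD1 window, of the member with the largest fall, is shown beside them and holds no capitals. Sequences run 5′ to 3′ on the gene's strand.
MXD4 (chr4:2262060-2262359, minus strand): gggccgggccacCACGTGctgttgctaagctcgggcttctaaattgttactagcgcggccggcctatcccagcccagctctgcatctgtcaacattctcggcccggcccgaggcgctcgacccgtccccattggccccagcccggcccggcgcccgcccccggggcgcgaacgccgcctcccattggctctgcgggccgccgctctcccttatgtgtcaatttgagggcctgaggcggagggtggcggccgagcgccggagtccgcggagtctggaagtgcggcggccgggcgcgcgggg
MLX (chr17:42566850-42567149, plus strand): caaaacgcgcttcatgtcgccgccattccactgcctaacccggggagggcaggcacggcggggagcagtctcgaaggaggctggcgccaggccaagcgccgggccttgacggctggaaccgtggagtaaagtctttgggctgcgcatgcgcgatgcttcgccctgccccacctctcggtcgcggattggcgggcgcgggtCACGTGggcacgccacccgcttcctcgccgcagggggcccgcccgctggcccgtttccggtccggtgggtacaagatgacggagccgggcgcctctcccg
MNT (chr17:2401011-2401310, minus strand): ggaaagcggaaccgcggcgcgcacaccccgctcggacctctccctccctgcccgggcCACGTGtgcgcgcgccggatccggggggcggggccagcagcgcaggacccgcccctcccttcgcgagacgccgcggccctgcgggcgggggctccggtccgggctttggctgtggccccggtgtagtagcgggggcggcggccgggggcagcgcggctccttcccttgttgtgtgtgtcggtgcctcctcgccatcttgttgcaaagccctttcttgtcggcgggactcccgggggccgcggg
MXD1 (chr2:69914859-69915158, plus strand): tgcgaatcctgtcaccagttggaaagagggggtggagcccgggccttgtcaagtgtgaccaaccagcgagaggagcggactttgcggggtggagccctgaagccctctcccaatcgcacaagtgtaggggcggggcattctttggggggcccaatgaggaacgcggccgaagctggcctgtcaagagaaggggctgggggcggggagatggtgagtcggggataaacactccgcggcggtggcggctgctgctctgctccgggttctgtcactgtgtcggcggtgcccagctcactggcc
The E-box began 238 bases before the start in MXD4, 50 bases before it in MLX and 193 bases before it in MNT. These matches describe letters in the windows and do not show binding.

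Total counts were 13.1 to 17.0 M in si_CSNK2B, 14.3 to 17.5 M in si_P300 and 17.7 to 18.3 M in NC, so NC was the deepest group. The TMM scaling factors were 1.01 to 1.06, 1.01 to 1.04 and 0.940 to 0.954 in the same order; the part of depth and composition in the results was not tested beyond the scaling alternatives. Neither targeted transcript passed the test in its own siRNA group. CSNK2B stood at 152 ± 14.6 CPM in si_CSNK2B and 182 ± 12.8 CPM in NC (SD, n = 3; log2 fold change -0.26, edgeR adjusted p = 0.0732). EP300 stood at 36.8 ± 3.67 CPM in si_P300 and 45.2 ± 4.93 CPM in NC (log2 fold change -0.30, edgeR adjusted p = 0.101). Each transcript stood at a similar level under the other siRNA, CSNK2B at 156 ± 7.47 CPM in si_P300 (-0.22 against NC, edgeR adjusted p = 0.137) and EP300 at 37.5 ± 4.42 CPM in si_CSNK2B (-0.27, adjusted p = 0.119). Between the siRNA groups CSNK2B differed by -0.04 and EP300 by 0.03 (si_CSNK2B over si_P300, edgeR adjusted p = 0.992 and 0.993), so a drop in the targeted transcript was not shown for either siRNA. The label of the cells was not borne out by their markers: of 9 measured neuroendocrine small cell lung cancer markers 0 averaged 10 CPM, their summed level was 1.71 to 2.39 CPM in si_CSNK2B, 1.52 to 2.26 CPM in si_P300 and 1.19 to 1.78 CPM in NC, and SYP stood at 0.649 ± 0.160 CPM in NC. Of 5 measured intestinal epithelial markers 4 averaged over 10 CPM, including CDX2 at 65.0 ± 7.24 CPM in NC. The summed intestinal level was 545 to 642 CPM in si_CSNK2B, 567 to 598 CPM in si_P300 and 565 to 661 CPM in NC. LGALS4 was lower and VIL1 higher in both siRNA groups. KRT20 was also higher in both, at low levels of 1.66 CPM in si_CSNK2B, 2.20 CPM in si_P300 and 0.824 CPM in NC. The part of these markers in the results was not tested. The cells are called by their label only. In bulk RNA, fewer cells of a type and less RNA per cell cannot be told apart. Across tested genes, libraries of the same group correlated at 0.974 to 0.992 in log2 CPM. Pairs of a si_CSNK2B with a si_P300 library stood at 0.977 to 0.989, so these correlations did not separate the siRNA groups. Pairs of an siRNA library with an NC library stood at 0.955 to 0.972. No pair of libraries held identical values.

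Levels between genes are compared in TPM, the length-scaled transcript share that the authors deposited for each library. MYC was the highest member in every group, at 132 ± 8.26 TPM in si_CSNK2B, 142 ± 14.1 TPM in si_P300 and 144 ± 5.36 TPM in NC (SD, n = 3 each). In NC 93.7% of all genes had a lower mean TPM than MYC. MAX followed at 132 ± 2.61 TPM in NC, then MLX (56.2 ± 1.97), MXD1 (35.0 ± 4.86), MXI1 (25.4 ± 2.74), MNT (11.2 ± 1.29), MYCL (7.27 ± 0.204), MGA (6.29 ± 0.440), MXD4 (5.75 ± 0.900) and MYCN (0.663 ± 0.332). The TPM ranges of neighbours in this order overlapped in NC only for MGA and MXD4. In si_CSNK2B the order below MLX was MXI1, MXD4, MXD1, MNT, MGA, MYCL and MYCN, with overlapping ranges for MXD4 and MXD1 and for MXD1 and MNT. In si_P300 it was MXI1, MXD1, MXD4, MNT, MYCL, MGA and MYCN, and ranges overlapped for MXI1 and MXD1, MXD1 and MXD4, MXD4 and MNT, and MYCL and MGA. MXD1 thus ranked just below MLX in NC, and its range overlapped with those of MXD4 and MNT in si_CSNK2B.

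**Figure D1:**
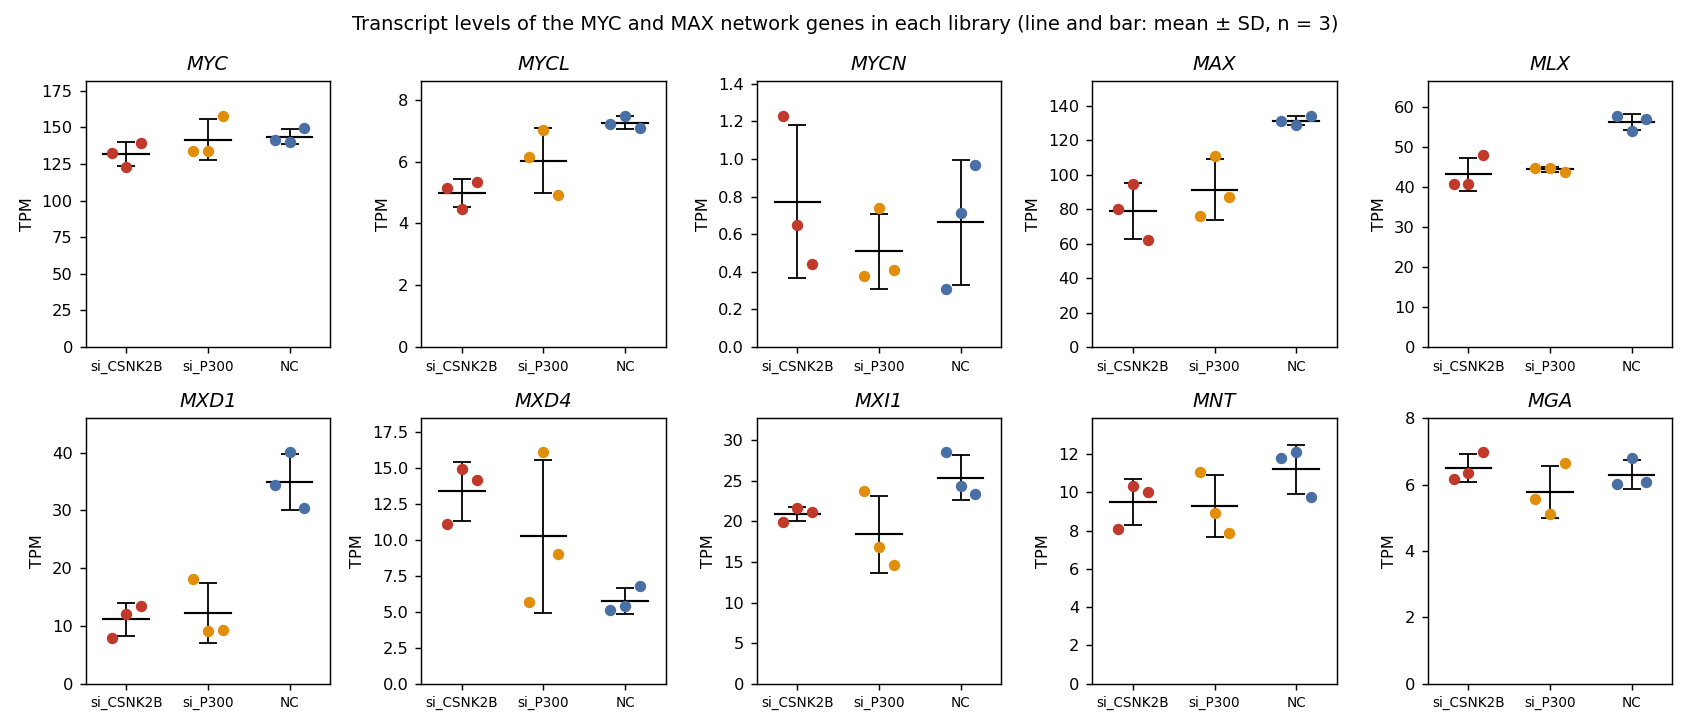
TPM of each member by library, with si_CSNK2B, si_P300 and NC from left to right in each panel; points are libraries, and the line and bar are the mean ± SD of 3. MXD1 lies at 7.93 to 13.5 TPM in si_CSNK2B and 9.18 to 18.2 TPM in si_P300, against 30.4 to 40.1 TPM in NC, while the MYC panel shows no such gap.

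MYC (gene ID 4609, chromosome 8, 127735434 to 127741434, plus strand, GRCh38 in GENCODE 29), the broad activator of growth and ribosome genes, stood at 133, 123 and 140 TPM in si_CSNK2B replicates 1 to 3. It was at 134, 134 and 158 TPM in si_P300, and at 141, 140 and 150 TPM in NC. The si_CSNK2B libraries lay just under the NC libraries and those of si_P300 overlapped with NC. Fold changes come from edgeR's quasi-likelihood test on read counts, fitted over 13129 tested genes, with Benjamini-Hochberg adjustment over all of them, and a gene passed at an adjusted p under 0.05. The log2 fold change of MYC was -0.17 ± 0.106 (SE) in si_CSNK2B against NC, a difference of -11.4% with a 95% interval on the log2 scale of -0.40 to 0.06 (edgeR adjusted p = 0.220). In si_P300 against NC it was -0.08 ± 0.106, with an interval of -0.31 to 0.15 (edgeR adjusted p = 0.585). MYC passed in 0 of 20 alternatives in each comparison. When libraries were scaled by their sizes without TMM, its log2 fold change in si_P300 was 0.03, of the opposite sign.

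MYCL (chromosome 1, 39895426 to 39902256, minus strand), the paralog first found amplified in small cell lung cancer, fell in si_CSNK2B. It read 5.14, 4.46 and 5.35 TPM in si_CSNK2B, 6.15, 7.02 and 4.93 TPM in si_P300, and 7.22, 7.49 and 7.09 TPM in NC. Every library of both siRNA groups lay below every NC library. The log2 fold change was -0.57 ± 0.159 in si_CSNK2B (edgeR adjusted p = 0.0168) and -0.31 ± 0.157 in si_P300, which did not pass (edgeR adjusted p = 0.158). The call in si_CSNK2B was lost without NC replicate 3 (edgeR adjusted p = 0.0561) or without si_CSNK2B replicate 2 (0.0543), in a range of 0.00706 to 0.0561 over 20 alternatives. In si_P300 it was gained without si_P300 replicate 2 (-0.47, edgeR adjusted p = 0.0450, in a range of 0.0450 to 0.414).

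MYCN (chromosome 2, 15940564 to 15947007, plus strand), the paralog of neural tissue that NCI-H69 is known to amplify, was at the edge of detection. Its expected counts were 23, 9 and 8.06 in si_CSNK2B, 9, 13 and 9 in si_P300, and 8, 16 and 19 in NC, in libraries of over 13 M counts. These correspond to 0.773 ± 0.409, 0.510 ± 0.200 and 0.663 ± 0.332 TPM in si_CSNK2B, si_P300 and NC, and 31.7% of the table's genes had a lower mean TPM in NC. The groups overlapped, and the log2 fold changes of 0.02 ± 0.447 in si_CSNK2B and -0.40 ± 0.465 in si_P300 did not pass (edgeR adjusted p = 0.979 and 0.548). At these counts the 95% intervals ran from -0.96 to 0.99 and from -1.41 to 0.61, so differences within these bounds were not excluded. Like the neuroendocrine markers, the MYCN level did not bear out the label of the cells.

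MAX (gene ID 4149, chromosome 14, 65006174 to 65102695, minus strand), a partner shared by MYC, the MXD proteins, MNT and MGA, fell in both siRNA groups. It stood at 79.9, 94.5 and 62.1 TPM in si_CSNK2B, 75.9, 111 and 87.1 TPM in si_P300, and 131, 129 and 134 TPM in NC. The NC libraries lay within a narrow band (SD 2.61 TPM), and all 6 siRNA libraries fell below it with a wider spread (SD 16.2 and 17.7 TPM). The log2 fold change was -0.81 ± 0.175 in si_CSNK2B, a difference of -42.9% (edgeR adjusted p = 0.00422), and -0.62 ± 0.174 in si_P300, a difference of -34.7% (edgeR adjusted p = 0.0210). The call in si_CSNK2B held in 20 of 20 alternatives. In si_P300 it held in 16 of 20 and was lost without NC replicate 1 (edgeR adjusted p = 0.0647), NC replicate 3 (0.0742) or si_P300 replicate 3 (0.0668) and on unfiltered log2(TPM + 1) (limma adjusted p = 0.0524), in a range of 0.00317 to 0.0742.

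MLX (gene ID 6945, chromosome 17, 42567068 to 42573239, plus strand), the hub of the glucose-sensing branch, also fell in both groups. It was at 40.6, 40.8 and 48.0 TPM in si_CSNK2B, 44.7, 44.6 and 43.6 TPM in si_P300, and 57.8, 54.0 and 56.9 TPM in NC. No siRNA library reached the lowest NC library. MLX had a log2 fold change of -0.45 ± 0.0967 in si_CSNK2B (-26.7%, edgeR adjusted p = 0.00417) and -0.42 ± 0.0966 in si_P300 (-25.5%, edgeR adjusted p = 0.00726), and both calls held in 20 of 20 alternatives.

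MXD1 (gene ID 4084, chromosome 2, 69897688 to 69942945, plus strand), a MYC antagonist known to rise with differentiation, fell the most of the members. It stood at 7.93, 12.0 and 13.5 TPM in si_CSNK2B, 18.2, 9.18 and 9.28 TPM in si_P300, and 34.5, 40.1 and 30.4 TPM in NC. Neither siRNA group overlapped with NC, and si_P300 replicate 1 was the siRNA library nearest to NC. The siRNA groups overlapped with each other. Its log2 fold change was -1.70 ± 0.240 in si_CSNK2B, 3.26-fold lower (edgeR adjusted p = 3.01e-04), and -1.59 ± 0.238 in si_P300, 3.00-fold lower (edgeR adjusted p = 6.29e-04). Of all tested genes 2.32% had a larger change in either direction in si_CSNK2B, and 2.00% in si_P300. Both calls held in 20 of 20 alternatives, and without si_P300 replicate 1 the value in si_P300 was -1.96.

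MXD4 (gene ID 10608, chromosome 4, 2247432 to 2262294, minus strand), another MXD repressor, went the other way and rose in si_CSNK2B. It was at 11.1, 14.9 and 14.1 TPM in si_CSNK2B, 5.65, 16.1 and 8.99 TPM in si_P300, and 5.10, 5.38 and 6.78 TPM in NC. All 3 si_CSNK2B libraries lay above NC, whereas si_P300 replicate 1 lay within the NC range and the other two si_P300 libraries above it. The log2 fold change was 1.16 ± 0.310 in si_CSNK2B, 2.24-fold higher (edgeR adjusted p = 0.0133), and this call was lost without NC replicate 1 (1.08, edgeR adjusted p = 0.0539, in a range of 1.19e-04 to 0.0539 over 20 alternatives). In si_P300 it was 0.78 ± 0.311 and did not pass (edgeR adjusted p = 0.0823). There it passed at 1.09 without si_P300 replicate 1 (edgeR adjusted p = 0.00377), by DESeq2 (adjusted p = 0.0406) and with library sizes alone (edgeR adjusted p = 0.0498), and it was 0.26 without si_P300 replicate 2 (edgeR adjusted p = 0.401).

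MXI1 (chromosome 10, 110207605 to 110287365, plus strand), the third MXD repressor among the members, fell in si_P300. It read 20.0, 21.7 and 21.2 TPM in si_CSNK2B, 23.8, 16.9 and 14.6 TPM in si_P300, and 28.5, 24.4 and 23.4 TPM in NC. The si_P300 range reached into that of NC in TPM, through replicate 1, but not in normalised CPM. The log2 fold change was -0.54 ± 0.151 in si_P300 (edgeR adjusted p = 0.0191) and -0.33 ± 0.150 in si_CSNK2B, which did not pass (edgeR adjusted p = 0.107). For si_P300 the gene no longer passed without NC replicate 1 (edgeR adjusted p = 0.0879) or si_P300 replicate 3 (0.0685), with library sizes alone (0.0546) and on unfiltered log2(TPM + 1) (limma adjusted p = 0.0779), in a range of 0.00158 to 0.0879. In si_CSNK2B it was gained in the fit of the 6 libraries compared (edgeR adjusted p = 0.0268) and without si_P300 replicate 1 (0.0376), in a range of 0.0268 to 0.316.

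MNT (chromosome 17, 2384060 to 2401118, minus strand), the broadly expressed repressor, and MGA (chromosome 15, 41621224 to 41773081, plus strand), the largest protein of the network, did not pass in either comparison. MNT stood at 8.10, 10.4 and 10.0 TPM in si_CSNK2B, 11.1, 8.90 and 7.86 TPM in si_P300, and 11.8, 12.1 and 9.73 TPM in NC. MGA stood at 6.17, 6.36 and 6.97 TPM in si_CSNK2B, 5.57, 5.10 and 6.64 TPM in si_P300, and 6.01, 6.80 and 6.07 TPM in NC. The groups overlapped for both genes. The log2 fold changes of MNT were -0.17 (95% interval -0.47 to 0.12) and -0.23 (-0.52 to 0.07), and those of MGA 0.09 (-0.16 to 0.34) and -0.08 (-0.33 to 0.17), in si_CSNK2B and si_P300 in this order. With library sizes alone, MGA in si_P300 was at 0.03, of the opposite sign.

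**Figure D2:**
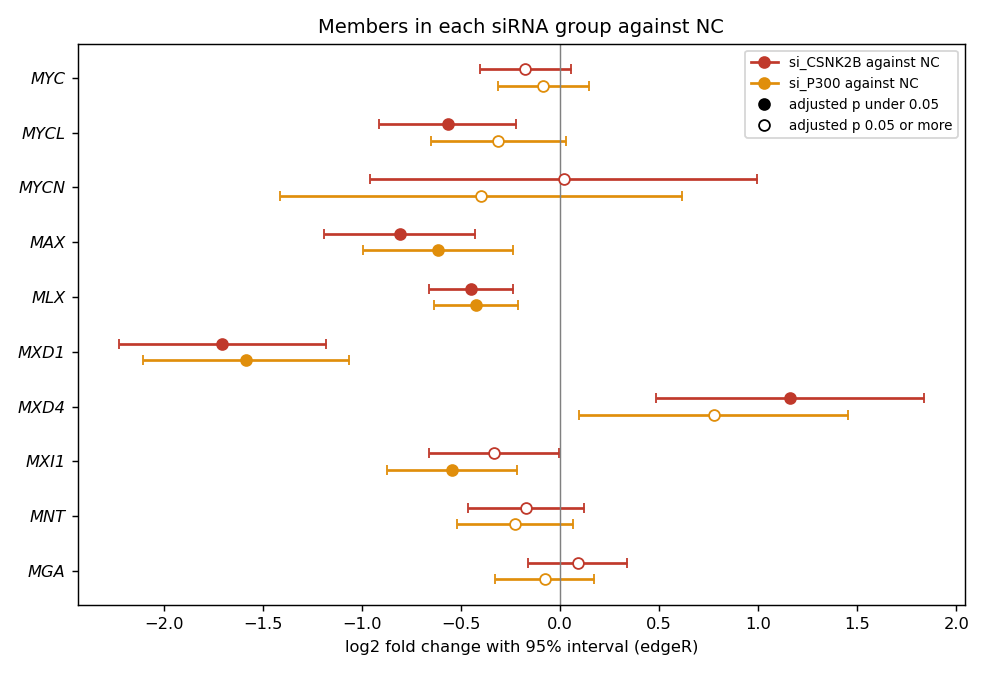
Log2 fold changes of the members in si_CSNK2B against NC (red) and si_P300 against NC (orange), with 95% intervals from edgeR; filled points have an adjusted p under 0.05. MXD1 stands farthest to the left at -1.70 and -1.59, and MXD4 alone has both points to the right of 0.5, of which 0.78 in si_P300 did not pass.

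Counted together, 5 of 10 members passed in si_CSNK2B against NC, MYCL, MAX, MXD1 and MLX lower and MXD4 higher, where 34.0% of all tested genes passed, 17.8% lower and 16.2% higher. In si_P300 against NC 4 of 10 passed, MAX, MXD1, MXI1 and MLX, all lower, where 28.3% of all tested genes passed, 14.7% lower and 13.6% higher. Libraries were fully separated from NC in normalised CPM for 7 of 10 members in si_CSNK2B, beside 53.0% of tested genes, and for 5 of 10 in si_P300, beside 46.5%. At an unadjusted p under 0.05 by edgeR stood 6 members in si_CSNK2B, beside 45.0% of tested genes, and 5 in si_P300, beside 40.4%. The members' median log2 fold change was -0.25 in si_CSNK2B and -0.36 in si_P300, beside medians of 0.04 and 0.04 over all tested genes. With 10 members these counts lie close to the shares of all tested genes, and nothing particular to the network is read from them. The 2 comparisons share their 3 NC libraries, so a like sign in both is not separate evidence. For members whose groups did not overlap in log2 CPM, the two-sided exact permutation test of 3 against 3 libraries gave p = 0.1, the smallest it allows.

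**Figure D3:**
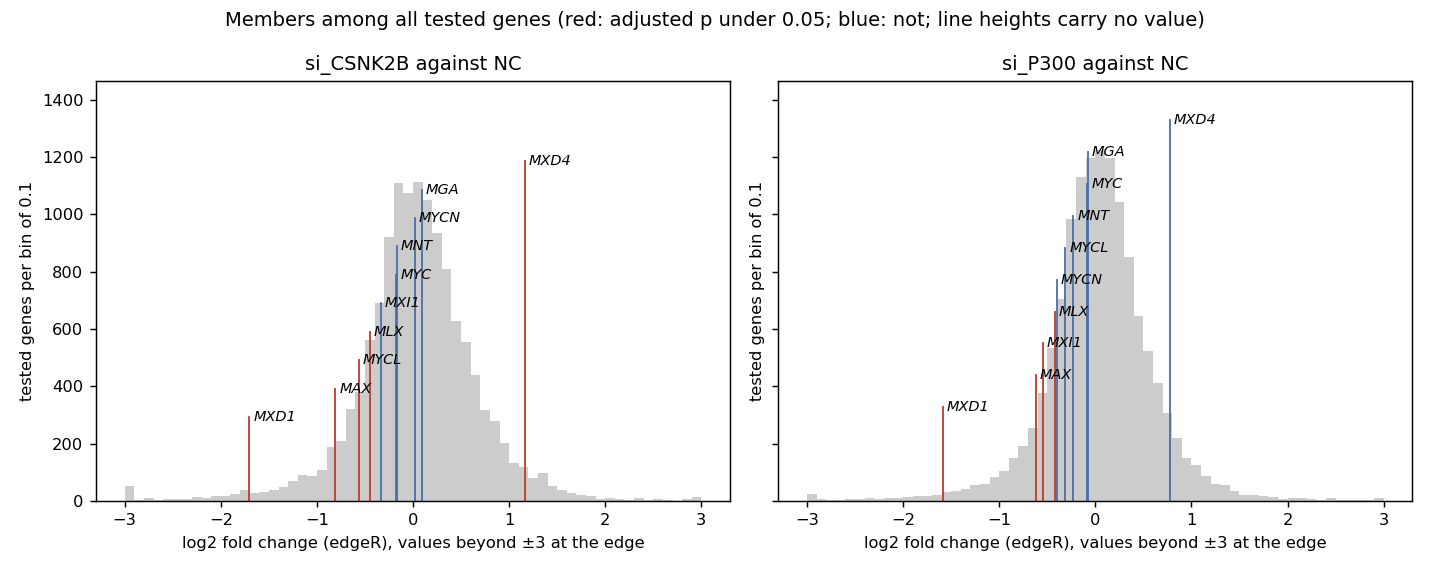
Histograms of log2 fold changes of 13129 tested genes (bins of 0.1) in si_CSNK2B against NC and si_P300 against NC, with the 10 members as lines, red where the adjusted p is under 0.05. MXD1 lies in the left tail of both panels (-1.70 and -1.59) and MXD4 on the right (1.16 and 0.78), while the all-gene median is 0.04 in each.

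Set directly against each other, si_CSNK2B and si_P300 gave 0 of 10 members past the threshold, and 0% of tested genes. Their libraries were fully separated for 0 of 10 members, beside 7.14% of tested genes. In this contrast 661 genes (5.03%) had an unadjusted p under 0.05, and 0 genes passed by limma-voom and 8 by DESeq2. As log2 fold changes of si_CSNK2B over si_P300 with 95% intervals, MYCN differed by 0.42 (-0.60 to 1.44) and MXD4 by 0.39 (-0.27 to 1.05). MYCL differed by -0.26 (-0.61 to 0.09), MXI1 by 0.21 (-0.12 to 0.54), MGA by 0.17 (-0.08 to 0.42), MAX by -0.19 (-0.57 to 0.19), MXD1 by -0.12 (-0.64 to 0.40), MYC by -0.09 (-0.32 to 0.14), MNT by 0.06 (-0.24 to 0.35) and MLX by -0.02 (-0.24 to 0.19). A member that passed in 1 comparison with NC and not in the other is therefore not shown to differ between the siRNAs, and the intervals do not show that it responded alike.

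The make-up of the pool of repressor members differed between groups, as a description with no test. MXD3, another MXD repressor, is not among the members and is left out. MXD1, MXD4, MXI1, MNT and MGA summed to 61.4 ± 7.12 TPM in si_CSNK2B, 55.9 ± 8.41 TPM in si_P300 and 83.6 ± 6.48 TPM in NC. MXD1 made up 17.9% ± 2.84 of this sum in si_CSNK2B, 21.4% ± 6.19 in si_P300 and 41.7% ± 3.02 in NC. MXD4 made up 21.7% ± 1.06, 18.8% ± 9.91 and 6.96% ± 1.67 in the same order, and 8.80% in si_P300 replicate 1. Of these repressor transcripts, MXD1 was the most abundant in all 3 NC libraries, and MXI1 was in all 6 siRNA libraries. For each TPM of MYC there were 0.605 ± 0.161 TPM of MAX in si_CSNK2B, 0.649 ± 0.155 in si_P300 and 0.915 ± 0.0170 in NC, with ranges of 0.445 to 0.767, 0.551 to 0.828 and 0.896 to 0.928. The repressor sum per TPM of the MYC family was 0.448 ± 0.0635 in si_CSNK2B, 0.382 ± 0.0850 in si_P300 and 0.553 ± 0.0612 in NC, and here si_CSNK2B (0.383 to 0.509) overlapped with NC (0.483 to 0.598) while si_P300 (0.290 to 0.458) did not. These are transcript ratios, and protein was not measured.

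**Figure D4:**
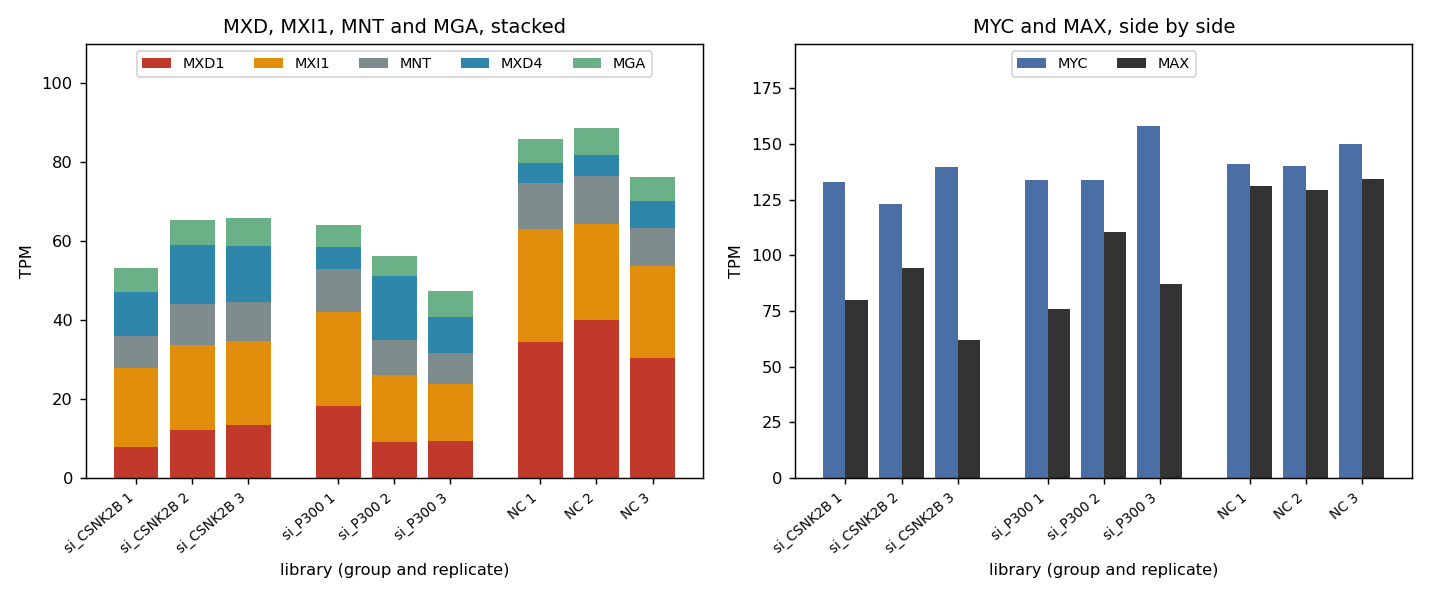
Left, stacked TPM of the MAX-binding repressors MXD1, MXI1, MNT, MXD4 and MGA in each library; right, TPM of MYC and MAX in each library, with si_CSNK2B, si_P300 and NC from left to right. The MXD1 block is the largest in each NC bar (41.7% on average), and the MAX bar falls short of the MYC bar by more in all 6 siRNA libraries than in NC.

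Annotated neighbours share part of several loci, and the strand setting of the counting is not given in the sources used here, so the levels of these members are uncertain to that extent. FNTB and CHURC1-FNTB lie over MAX on the opposite strand, and their log2 fold changes were -0.70 (edgeR adjusted p = 0.0474) and -0.11 (0.491) in si_CSNK2B and -0.22 (0.524) and -0.25 (0.114) in si_P300. FNTB itself stood at 2.80 CPM in si_CSNK2B, 3.89 CPM in si_P300 and 4.52 CPM in NC, beside 80.6, 92.1 and 141 CPM of MAX. CHURC1-FNTB stood higher, at 34.1, 30.8 and 36.7 CPM in the same order. PSMC3IP, over MLX on the opposite strand, was at -0.31 (edgeR adjusted p = 0.163) in si_CSNK2B and 0.00 (0.989) in si_P300. SNRNP27, over MXD1 on the same strand, was at -0.17 (edgeR adjusted p = 0.295) and -0.11 (0.523), at 33.9 CPM in si_CSNK2B, 35.3 CPM in si_P300 and 38.1 CPM in NC. MYCN has the antisense gene MYCNOS over it, MYCL, MNT and MXI1 each have an antisense gene, MXD4 holds MIR4800, MGA holds MIR626 and has 2 genes opposite, and MYC has no overlapping gene in GENCODE 29.

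For each member that passed, the genes with the most similar profile over the 9 libraries were read as a description (Pearson r of log2 CPM among 9765 other genes averaging at least 10 CPM; the libraries share the group structure, so r mostly follows the groups). MXD1 was closest to OSGIN1 (r = 0.997), PIM3 (0.989) and RBCK1 (0.988). MAX was closest to STAU1 (0.997), MICALL1 (0.989) and CCZ1B (0.984), and MLX to KXD1 (0.984), INPP5K (0.983) and TNFRSF1A (0.978). MXD4 was closest to NDUFB2 (0.976), FBXL19 (0.975) and ZKSCAN4 (0.975), MXI1 to PDGFB (0.981), VGLL4 (0.919) and TAF10 (0.915), and MYCL to ARL2BP (0.962), C2CD4A (0.952) and SLC66A2 (0.948).

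The rest of the network and its partners were read from lists. Of the 3 other network genes, MXD3 and MLXIP rose in si_CSNK2B and 0 passed in si_P300. MXD3, an MXD protein of proliferating cells, stood at 8.21, 6.45 and 4.90 CPM in si_CSNK2B, si_P300 and NC (log2 fold change 0.75 ± 0.181, edgeR adjusted p = 0.00810, and 0.39 ± 0.182, adjusted p = 0.128). MLXIP, the partner of MLX, stood at 64.3, 59.4 and 51.5 CPM in the same order (0.32 ± 0.0991, edgeR adjusted p = 0.0269, and 0.20 ± 0.0991, adjusted p = 0.143), opposite in sign to MLX. MLXIPL, the other MLX partner, stood at 4.65, 3.79 and 4.74 CPM and did not pass (-0.03 and -0.31).

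Of 16 MYC cofactors 4 rose and 4 fell in si_CSNK2B, and 3 rose and 4 fell in si_P300, with medians of 0.00 and 0.05. KAT2A, the acetyltransferase GCN5 that TRRAP brings to MYC, rose in both (0.72 ± 0.0987 and 0.60 ± 0.0986, edgeR adjusted p = 2.59e-04 and 0.00114). CDK9, the elongation kinase (0.42 and 0.55), and the MYC-binding factor HCFC1 (0.41 and 0.51) also rose in both, and the SWI/SNF subunit SMARCB1 fell in both (-0.46 and -0.39). KAT5, the TIP60 acetyltransferase, fell in si_CSNK2B (-0.53) and stood at -0.31 in si_P300, which did not pass (edgeR adjusted p = 0.0611).

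Of 16 genes of the SIN3, HDAC and NCOR corepressors used by MXD proteins and MNT, 0 rose and 2 fell in si_CSNK2B, and 0 rose and 4 fell in si_P300 (medians 0.08 and 0.08). The nuclear receptor corepressor NCOR1 (-0.65 and -0.60) and the SIN3 subunit ING1 (-0.50 and -0.43) fell in both, in the order si_CSNK2B and si_P300. RBBP4, a histone chaperone, fell in si_P300 (-0.77) and stood at 0.15 in si_CSNK2B, which did not pass (edgeR adjusted p = 0.455). Its direct contrast, si_CSNK2B over si_P300, was 0.92 and did not pass (edgeR adjusted p = 0.232). Of 12 MGA-PRC1.6 subunits 1 rose and 2 fell in si_CSNK2B, and 1 rose and 1 fell in si_P300 (medians -0.12 and -0.09). The heterochromatin protein CBX3 rose (0.47 and 0.39) and the repressor E2F6 fell (-0.48 and -0.32) in both, and the ubiquitin ligase RNF2 fell in si_CSNK2B (-0.36) and stood at -0.27 in si_P300, which did not pass (edgeR adjusted p = 0.0618).

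Of 16 genes of MYC protein turnover 2 rose and 4 fell in si_CSNK2B, and 1 rose and 4 fell in si_P300 (medians -0.19 and -0.21). The scaffold AXIN1 (-0.77 and -0.68) and PPP2CA, the catalytic subunit of the phosphatase PP2A that acts on MYC (-0.66 and -0.60), fell in both. The PP2A subunit PPP2R5A (-0.46 and -0.40) and the deubiquitinase USP36 (-0.32 and -0.45) also fell in both. The ubiquitin ligase subunit SKP2 rose in si_CSNK2B (0.49) and stood at 0.32 in si_P300, which did not pass (edgeR adjusted p = 0.101). CIP2A, the PP2A inhibitor that stabilises MYC, rose in si_P300 (0.78) and stood at 0.49 in si_CSNK2B, which did not pass (edgeR adjusted p = 0.115). SKP2 stands in this list and among the cofactors, and 3 PRC1.6 genes stand also in the cofactor or corepressor lists.

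Of 31 tested genes that MYC is known to induce, 8 rose and 2 fell in si_CSNK2B and 7 rose and 2 fell in si_P300, with medians of 0.21 and 0.17 beside 0.04 and 0.04 over all tested genes. NME1, a nucleoside diphosphate kinase (0.73 ± 0.132 and 0.64 ± 0.132), and the transferrin receptor gene TFRC (0.66 ± 0.125 and 0.71 ± 0.125) rose in both. The ribosome factor PPAN (0.53 and 0.47) and the lactate dehydrogenase gene LDHA (0.63 and 0.75) also rose in both. SHMT2, the mitochondrial serine hydroxymethyltransferase, fell the most, to 146 CPM in si_CSNK2B and 177 CPM in si_P300, against 466 CPM in NC (-1.68 ± 0.161 and -1.40 ± 0.160, edgeR adjusted p = 2.24e-05 and 1.05e-04). SHMT2 is known as a target of ATF4 as well.

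Of 10 tested genes that MYC is known to repress, 1 rose and 3 fell in si_CSNK2B and 1 rose and 4 fell in si_P300 (medians -0.48 and -0.29). The 4 named in each comparison are the same genes. NDRG2, a growth-restraining gene, rose (1.54 ± 0.143 and 1.44 ± 0.143), and DDIT3, the stress factor CHOP (-3.05 and -2.27), GADD45A, a damage and stress gene (-1.51 and -1.26), and the CDK inhibitor gene CDKN1B (-0.85 and -0.83) fell. DDIT3 stood at 40.1 ± 5.61 CPM in si_CSNK2B, 68.5 ± 55.8 CPM in si_P300 and 332 ± 39.4 CPM in NC, so its spread was widest in si_P300. DDIT3 and GADD45A are known as genes of the stress response as well.

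Of 7 tested targets of MLX with MLXIP or MLXIPL, 1 rose and 2 fell in each comparison (medians 0.09 and -0.04). FASN, the fatty acid synthase, rose (0.60 and 0.61), and HK2, a hexokinase (-1.26 and -0.83), and SCD, the stearoyl-CoA desaturase (-0.63 and -0.33), fell. Shares of list members that passed in si_CSNK2B ran from 12.5% to 66.7% over the 8 lists, around the 34.0% of all tested genes, and from 0% to 50% in si_P300, around 28.3%.

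**Figure D5:**
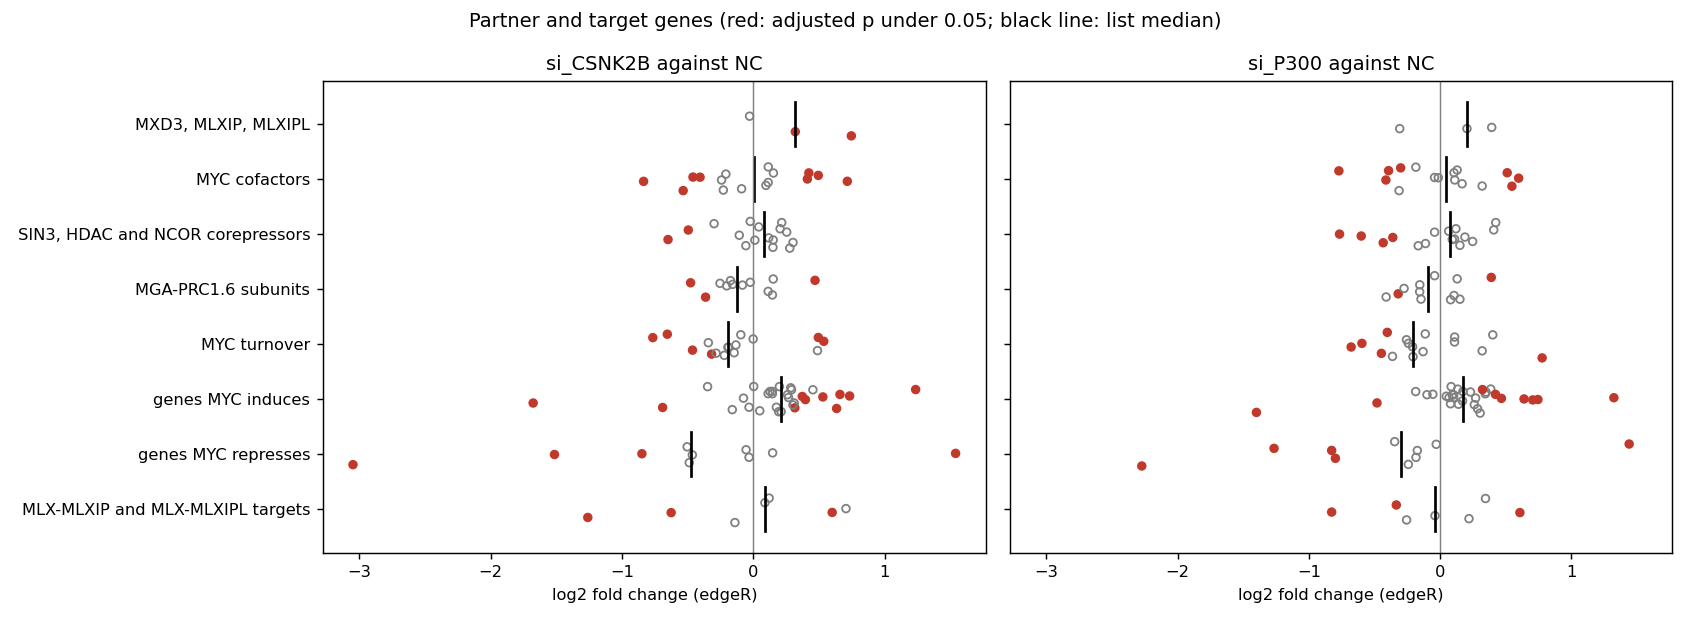
Log2 fold changes (edgeR) of tested genes in 8 partner and target lists, in si_CSNK2B against NC and si_P300 against NC; red points have an adjusted p under 0.05 and black lines are list medians. Points lie on both sides of 0 in most lists, with DDIT3 (-3.05) and SHMT2 (-1.68) farthest to the left in their lists in si_CSNK2B.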

How the data were processed

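Per the labels, reads were single-end, 50 bases long, from the BGISEQ platform. Per the submitters' processing notes, HISAT and Bowtie2 were used with genome build GRCh38.p13; their versions, the counting tool, annotation and strand setting are not given in the sources used here. The read count columns are, per the file headers, expected counts made by the authors, not scaled between libraries, of which 24.7% to 39.4% were whole. TPM were deposited by the authors, scaled by length to a common total, with 1 missing value. Another 30 columns (18 of single libraries, 12 group averages) were not used.

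Expected counts were rounded and fitted in R 4.3.3 with edgeR 4.0.16 (filterByExpr, minimum count 10; TMM; quasi-likelihood test, two-sided, 9 libraries, 3 contrasts; 13129 genes). The SE is the log2 fold change over the square root of F. CPM divide counts by TMM-scaled totals; log2 CPM add a prior count of 2. The fits were tested on simulated data. Alternatives used limma 3.58.1, DESeq2 1.42.0, other scalings, filters and pseudocounts, a term for the replicate number (replicate block), and the omission of each library in turn.

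The members and lists were chosen with earlier results of these data known, so list counts are descriptions. Named list genes are the 3 other network genes and, elsewhere, up to 4 per list and comparison with the lowest p among those that passed; named profiles are the 3 most similar genes. Some genes that this rule names are not reported here. Nothing in the labels says that replicates came from separate cultures, so p-values measure the spread between these libraries.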

Additional observations from a re-analysis of the deposited data

How the results depend on the processing

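Of 591 recomputed member results 574 stayed on the same side of the threshold, 11 lost their call, 6 gained one and 0 reversed a call. Members that passed ran from 4 to 6 in si_CSNK2B against NC and from 2 to 5 in si_P300 against NC when each library was left out, and were 2 in si_P300 on unfiltered log2(TPM + 1); the cause was not tested. The direct contrast gave 0 members in all of these. Counts of all genes ran from 2928 to 5166 and from 2191 to 3882 when each library was left out, lowest without NC replicate 3 in both, and stood at 2322 in si_P300 without NC replicate 1. DESeq2 gave 8 genes in the direct contrast and the other settings 0. With replicate number as a block (the replicate block), 3828, 3012 and 0 genes and 5, 4 and 0 members passed in si_CSNK2B against NC, si_P300 against NC and the direct contrast; same-numbered libraries did not deviate together (correlations of -0.29 to 0.06), so the numbers were not taken as pairs. With library sizes alone, 66.0% of passing genes were higher in each comparison with NC, against 47.6% and 48.1%, and the median of all genes moved by 0.12 and 0.11; relative to that median MYC was at -0.21 and -0.13 under both scalings. MYCN had too few reads for the stricter filter and for a mean TPM of 1. Intervals rest on a spread per gene over all 9 libraries together, with 3 per group, which edgeR draws toward that of the other tested genes. They do not rest on each group's own spread. MYCN was read from only 8 to 23 reads per library.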
